A study of Mus musculus with 12 samples.

Results

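The study names a group of genes as lower in rods that lack pyruvate kinase M2, and 10 of them were followed here through every library: *Flrt1*, *Lrfn3*, *Igsf21*, *Spon1*, *Fez1*, *Dtna*, *Actl6b*, *Pcsk6*, *Pam* and *Rassf4*. They are neuronal, adhesion and secretory-pathway genes of that list, with *Rassf4*. Its genes of inner-retina signalling cascades and several others were left out. Each matched 1 entry by symbol, so all 10 of 10 were found among the 56748 genes of the deposited table, and all 10 passed the filter on low values in rods and in retina. They were chosen by their values in the rod libraries of the 2 genotypes, so that difference is given below as a description. Adjusted p-values and intervals printed for it are not read as evidence about these genes. The study calls its listed genes differentially down-regulated but states no cut-off for the list, so genes just inside or outside one cannot be named.

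The libraries came from 2 fractions of mouse retina. In Rod-TRAP, a ribosomal protein carried an HA tag (the RiboTag allele) after recombination by Cre, and HA immunoprecipitation recovered ribosome-bound mRNA from rods (called rods). Input RNA, taken from the lysate before immunoprecipitation, stands for the total tissue (called retina). Control mice (Rodhet) had the genotype RiboTag;Pkm2fl/+;i75-Rod-Cre and Pkm2 Rodko mice (Rodko) had RiboTag;Pkm2fl/fl;i75-Rod-Cre, so both carried RiboTag, a Cre driven by the rhodopsin promoter and at least 1 floxed allele. The controls are therefore heterozygous in their rods, not untouched. Each of the 4 groups had 3 libraries, 12 in all. The age is 2 months by the methods and 2 weeks by the deposited description. No source says whether a library was 1 animal or a pool, so p-values measure the spread between these libraries.

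Totals ran from 13458890 to 22790074 reads per library. The targeted gene, *Pkm*, whose splice forms share 1 entry, had a value of 52565 ± 1770 in control rods and 22850 ± 795 in Rodko rods (SD, n = 3). Its log2 fold change was -1.20 in rods (adjusted p = 5.36e-05) and -0.65 in retina (adjusted p = 0.0219; limma with Benjamini-Hochberg adjustment in both). The 19 rod markers summed to between 249645 and 274645 CPM (reads scaled to a common library size) over the 6 rod libraries and to between 59486 and 71712 CPM over the 6 retina libraries, and all 19 were higher in rods. No marker of another cell type was at 0 in all 6 rod libraries. Rod and retina libraries of the same genotype and number deviated together from their group means (correlations over genes between 0.235 and 0.517 in 6 of 6 pairs), so the 2 fractions are not separate sets of samples.

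Most of these genes encode proteins of cell contact, intracellular transport and scaffolding, or the making of secreted peptides. The exceptions are *Actl6b*, of a chromatin complex, and *Rassf4*, with a Ras-association domain. Leucine-rich repeat and immunoglobulin-domain proteins on the neuronal surface bind partners on the facing cell and help to build synapses. Proprotein convertases and the amidating enzyme trim and finish secreted proteins and peptides on their way out of the cell. A rod is a neuron with 1 kind of output synapse, onto bipolar and horizontal cells, and most of the other synapses of the retina belong to inner neurons. The deposited value of a gene, used throughout, is its reads divided by a size factor that was set separately for rods and for retina. Values of the 2 fractions were therefore compared as CPM with 1 common TMM scaling, and other scalings are given beside the results they change.

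Among the surface and matrix genes, *Flrt1* encodes a leucine-rich repeat protein with a fibronectin domain that binds latrophilins. In control rods its values were 24.3, 37.9 and 33.3, and in Rodko rods they were 19.3, 10.7 and 7.9. All 3 Rodko libraries were below all 3 controls, at means of 31.8 ± 6.92 and 12.6 ± 5.94 (SD, n = 3), a Rodko mean 60.3% lower with a log2 fold change of -1.33 (SE 0.381). These values rest on 19 to 52 reads per control library and 10 to 19 reads per Rodko library, the fewest of the 10 genes. In retina the values overlapped, with 222.1, 221.7 and 253 in controls and 237.4, 213.4 and 215 in Rodko. *Flrt1* (ENSMUSG00000047787, chromosome 19, 7092001 to 7105729, minus strand, GRCm38) lies inside *Macrod1*, a gene of the opposite strand. *Macrod1* had a mean of 181 ± 17.4 in control rods and 127 ± 30.4 in Rodko rods (log2 fold change -0.54, adjusted p = 0.932), and 130 ± 29.3 and 166 ± 15.3 in retina (0.38, adjusted p = 0.947; limma, n = 3). Whether reads were counted by strand is not given in the sources used here, so reads of these neighbours may be shared.

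*Lrfn3* (ENSMUSG00000036957, chromosome 7, 30355489 to 30362772, minus strand) encodes a synaptic adhesion-like molecule. Its rod values were 101.2, 96.3 and 101.1 in controls and 64.9, 40.7 and 58.6 in Rodko, again with no overlap. The control libraries lay close together (99.5 ± 2.80) and the Rodko libraries spread more widely (54.7 ± 12.6, SD, n = 3), a Rodko mean 45.0% lower (log2 -0.88, SE 0.218). In retina the Rodko mean was the higher one (266 ± 7.55 against 249 ± 57.2, SD, n = 3), with values of 226, 206.8 and 314 in controls and 271.1, 269.5 and 257.3 in Rodko. The third control library was the highest of the 6 and the groups overlapped.

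*Igsf21*, an immunoglobulin-domain protein that binds neurexin at inhibitory synapses, had rod values of 158.9, 173.6 and 167.6 in controls and 97.3, 119 and 100.6 in Rodko. The means were 167 ± 7.39 and 106 ± 11.7 (SD, n = 3), the smallest difference of the 10 genes, with a Rodko mean 36.6% lower (log2 -0.66, SE 0.159). The retina values, 500.7, 536.1 and 621 against 509.5, 552.6 and 585.4, were interleaved. The gene (ENSMUSG00000040972) spans 140026846 to 140246784 on the minus strand of chromosome 4 in GRCm38. Inside it lie 2 antisense genes: *Gm13027* had means of 155 ± 20.1 in control rods and 178 ± 29.2 in Rodko rods, and *Gm13029* had 74.5 ± 23.4 and 74.4 ± 12.3 (SD, n = 3). Neither antisense gene had a lower Rodko mean beyond its spread.

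The start of *Igsf21* is shown because its 300-base window was the only one of the members' windows with TAATCC, the core letters bound by CRX and OTX2 in photoreceptors. The window runs from 250 bases before to 50 bases after the start in RefSeq (GRCm38.p6, chr4:140246762-140247061, minus strand), read 5′ to 3′. Capitals mark the match, here the reverse complement, which begins at position -109 from the start. TAATCC on either strand occurred in 7.06% of all 32851 windows. The letters are a description and not evidence of binding.
Igsf21: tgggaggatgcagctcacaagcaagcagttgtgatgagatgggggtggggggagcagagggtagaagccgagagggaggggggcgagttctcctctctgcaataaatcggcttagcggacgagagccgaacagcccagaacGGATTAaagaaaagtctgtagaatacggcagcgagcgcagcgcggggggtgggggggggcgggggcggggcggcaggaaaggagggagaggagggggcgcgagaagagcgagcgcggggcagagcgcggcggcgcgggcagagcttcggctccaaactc

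*Spon1* (ENSMUSG00000038156, chromosome 7, 113765998 to 114043370, plus strand) encodes F-spondin, a secreted matrix protein of axon guidance. Its rod values were 187.1, 220.3 and 263.7 in controls and 131.8, 139.3 and 125.2 in Rodko, with means of 224 ± 38.4 and 132 ± 7.05 (SD, n = 3), a Rodko mean 40.9% lower (log2 -0.74, SE 0.159). The 3 Rodko libraries lay within a narrow band below every control. In retina it had the highest values of the set, 2559.8, 1905.6 and 2922.5 in controls and 1933.7, 2175 and 2060.4 in Rodko. The second retina control was below all 3 Rodko libraries and the other controls were above all 3, so the groups overlapped.

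Of the intracellular genes, *Fez1* (ENSMUSG00000032118, chromosome 9, 36821864 to 36878924, plus strand) encodes an adaptor that links cargo to kinesin-1 in axons. Its rod values were 89.7, 104.3 and 83.8 in controls and 56.8, 61.1 and 37.2 in Rodko, means of 92.6 ± 10.6 and 51.7 ± 12.7 (SD, n = 3), a Rodko mean 44.2% lower (log2 -0.85, SE 0.233). In retina the values were 1065.6, 978.4 and 920.4 in controls and 890.4, 891.7 and 885 in Rodko. Every Rodko retina library was below every control retina library, by a margin that was small against the spread of the controls. *Dtna* encodes alpha-dystrobrevin, a scaffold of the dystrophin complex at the membrane. It had 79.5, 94.8 and 90 in control rods and 51.7, 57.9 and 48.3 in Rodko rods, means of 88.1 ± 7.82 and 52.6 ± 4.87 (SD, n = 3), a Rodko mean 40.3% lower (log2 -0.73, SE 0.201). Its retina values, 1010.1, 969.9 and 988.2 against 812.3, 1012 and 882.7, overlapped through the second Rodko library.

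*Actl6b* encodes BAF53b, the subunit that replaces its relative ACTL6A in the BAF chromatin remodelling complex when neurons leave the cell cycle. Its rod values were 70.5, 101.4 and 71.5 in controls and 45.6, 36.4 and 40.4 in Rodko. The means were 81.1 ± 17.6 and 40.8 ± 4.61 (SD, n = 3), a Rodko mean 49.7% lower (log2 -0.96, SE 0.233), and the second control was well above the other two. In retina the values were 479.2, 460.4 and 439.2 in controls and 449.4, 399.7 and 393.3 in Rodko, with overlap of 1 library.

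The start of *Actl6b* (ENSMUSG00000029712, chromosome 5, 137553517 to 137569582, plus strand) is shown because it alone among the members' windows held the letters of both parts of RE1, the element of the neuronal gene repressor REST. The parts searched were CAGCACC and GGACAG, each on both strands, with no spacing or order required between them. The RefSeq window is chr5:137553296-137553595 (GRCm38.p6, plus strand), read 5′ to 3′. Capitals mark the reverse complements of GGACAG, from position 23 after the start, and of CAGCACC, from position 38, which do not overlap. CAGCACC occurred in 7.14% of all windows, GGACAG in 22.2% and both in 1.73%. These matches are a description too, and not evidence of a REST site.
Actl6b: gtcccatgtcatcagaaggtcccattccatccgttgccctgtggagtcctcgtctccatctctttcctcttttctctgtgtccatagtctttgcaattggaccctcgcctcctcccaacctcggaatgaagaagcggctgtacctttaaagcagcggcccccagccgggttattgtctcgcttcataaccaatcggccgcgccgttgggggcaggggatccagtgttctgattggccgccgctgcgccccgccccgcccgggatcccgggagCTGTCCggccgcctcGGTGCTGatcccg

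Windows were found for 7 of the 10 genes (10 windows in all, since *Pam* and *Fez1* have several starts) and none was shown for *Flrt1*, *Spon1* and *Dtna*. CAGCACC was in windows of 2 of the 7 genes (*Actl6b*, *Fez1*), GGACAG in 3 (*Actl6b*, *Lrfn3*, *Pam*), and the E-box CACGTG in 1 (*Fez1*; 7.15% of all windows). The GC box GGGCGG was in 6 of the 7 genes, all but *Lrfn3*, and in 35.7% of all windows. Its matches can overlap each other. A gene was counted when any of its windows held a motif, so these counts are not like the shares of windows. The genes' windows held from 53% (*Fez1*) to 81.7% (*Pcsk6*) G and C, against a median of 52.7% over all windows. Apart from the GC box, no motif searched was found in more than 3 of the 7 genes.

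In the secretory pathway, *Pcsk6* (ENSMUSG00000030513, chromosome 7, 65861734 to 66050386, plus strand) encodes the proprotein convertase PACE4. It had 35.9, 40.9 and 33.3 in control rods and 18.2, 11.8 and 17.4 in Rodko rods. The means were 36.7 ± 3.86 and 15.8 ± 3.49 (SD, n = 3), a Rodko mean 56.9% lower (log2 -1.18, SE 0.310), on 27 to 56 reads per control library and 11 to 22 per Rodko library. Its retina values were 522.1, 466.8 and 530.1 in controls and 428.3, 412.4 and 461.9 in Rodko, so here too every Rodko library was below every control. *Pam* (ENSMUSG00000026335, chromosome 1, 97795114 to 98095646, minus strand), the enzyme that amidates peptide hormones and neuropeptides, had 117.9, 158.3 and 107.2 in control rods and 76, 68.6 and 72.1 in Rodko rods. The means were 128 ± 27.0 and 72.2 ± 3.70 (SD, n = 3), a Rodko mean 43.5% lower (log2 -0.80, SE 0.194). In retina *Pam* had 2005.5, 1697.8 and 1776.5 in controls and 1552.8, 1655.9 and 1709.3 in Rodko, with the third Rodko library above the second control. *Gm3531*, a processed pseudogene on the same strand within *Pam*, had means of 140 ± 52.0 in control rods and 113 ± 5.38 in Rodko rods (SD, n = 3), so the reads it may share with *Pam* are uncertain.

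*Rassf4* (ENSMUSG00000042129, chromosome 6, 116633008 to 116673952, minus strand) encodes a protein with a Ras-association domain, of a family tied to the Hippo kinases. Its rod values were 67.9, 51.1 and 48.1 in controls and 32.4, 16.1 and 31.7 in Rodko, means of 55.7 ± 10.7 and 26.7 ± 9.22 (SD, n = 3), a Rodko mean 52.0% lower (log2 -1.08, SE 0.312). The retina values were 597.1, 519 and 588.4 in controls and 464.2, 526.3 and 546.5 in Rodko, and they overlapped. *Depp1*, on the opposite strand within *Rassf4*, had a mean of 1.63 in rods of either genotype. In all, 7 of the 10 genes overlap another annotated gene of the table, and those not named above had means of at most 6.53 in any group.

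**Figure D1:**
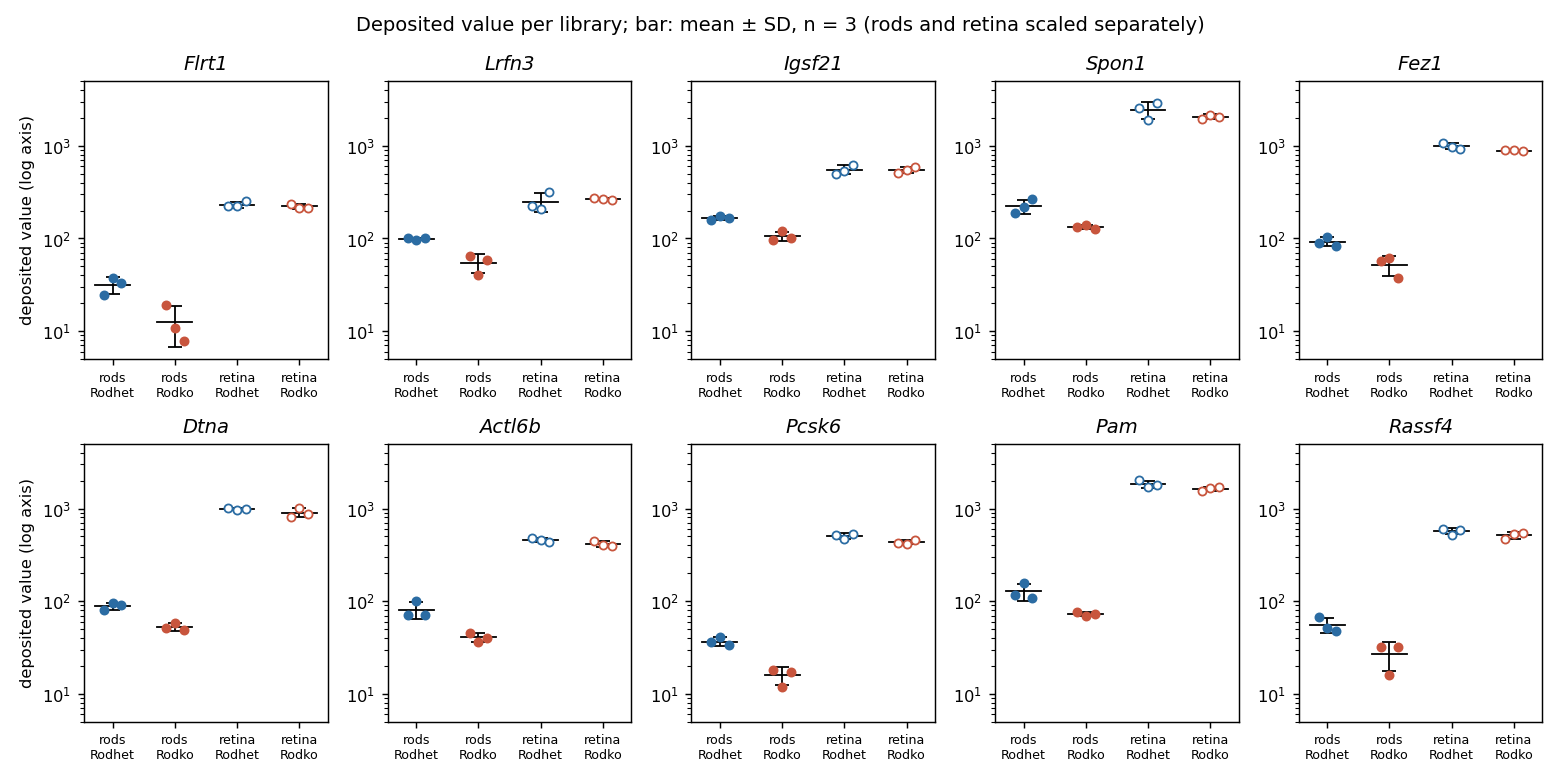
Deposited value of each of the 10 genes (log axis) in each library of control (Rodhet, blue) and Rodko (red) rods (filled points) and retina (open points), with the mean and SD of 3 libraries as black bars. In all 10 panels the 3 Rodko rod points are below the 3 control rod points, while the retina points overlap in 8 of 10, all but *Fez1* and *Pcsk6*; the 2 fractions were scaled separately.

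Seen as a set in rods, all 10 genes had every Rodko library below every control library, which 5.4% of the 20658 genes tested also had. Since this contrast chose the genes, nothing is read from that difference. The log2 fold changes ran from -1.33 (*Flrt1*) to -0.66 (*Igsf21*) with a median of -0.87, against a median of 0.006 over all genes tested. By adjusted p, 4 genes (0.0194%) differed between the genotypes in rods in limma and none of the 10 was among them. In 1 fit of all 12 libraries 18 genes passed, among them *Pcsk6*, *Dtna*, *Actl6b* and *Pam*, and nothing is read from either count. Control rod library 2, the deepest, held the highest control value for 7 of the 10 genes, library 1 for *Lrfn3* and *Rassf4*, and library 3 for *Spon1*. Without that library the median of the 10 was -0.78, and leaving out any 1 of the 6 rod libraries kept it between -0.97 and -0.78.

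The same genes in whole retina give the genotype contrast in libraries that did not choose them, though the pairs of rod and retina libraries deviated together. The study itself reports some of its listed genes as lower in Rodko retina by qRT-PCR. *Actl6b*, *Pam*, *Igsf21* and *Spon1* were among those it measured, and its qRT-PCR values were not compared with the values here. None of the 10 passed the adjusted threshold in retina, where 1 gene of 25590 did (0.00391%). The 10 adjusted p-values lay between 0.947 and 0.998 (limma with Benjamini-Hochberg adjustment). The estimate was below 0 for 9 of 10 genes, all but *Lrfn3*, against 51.0% of all genes tested and 66.4% of 1477 other genes with a like rods minus retina difference and a like mean rod value. The median was -0.15, against -0.004 over all genes. *Spon1* had -0.24 (95% interval -0.51 to 0.03), *Pcsk6* -0.22 (-0.43 to -0.01), *Fez1*, *Actl6b*, *Pam* and *Rassf4* -0.15, *Dtna* -0.14, *Flrt1* -0.06 (-0.33 to 0.20), *Igsf21* -0.01 (-0.23 to 0.22) and *Lrfn3* 0.12 (-0.21 to 0.44).

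Only *Pcsk6* of the 10 had an unadjusted p under 0.05 in retina (0.0445 in limma, adjusted p = 0.947), and 2.06% of all genes tested were lower in Rodko at that level. *Fez1* and *Pcsk6* had every Rodko retina library below every control, which 4.76% of the genes tested had. For each of these 2 genes the two-sided exact permutation test gave p = 0.1, the smallest that 3 libraries against 3 allow. The difference between the rod and the retina effect holds the contrast that chose the genes and was not tested. All 17 bipolar markers and all 11 Müller glia markers also had retina estimates below 0, with medians of -0.21 and -0.15, and none of these markers passed the adjusted threshold. Their part in the retina values of the 10 genes was not tested. In these bulk samples, fewer cells of a type and less RNA per cell cannot be told apart.

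**Figure D2:**
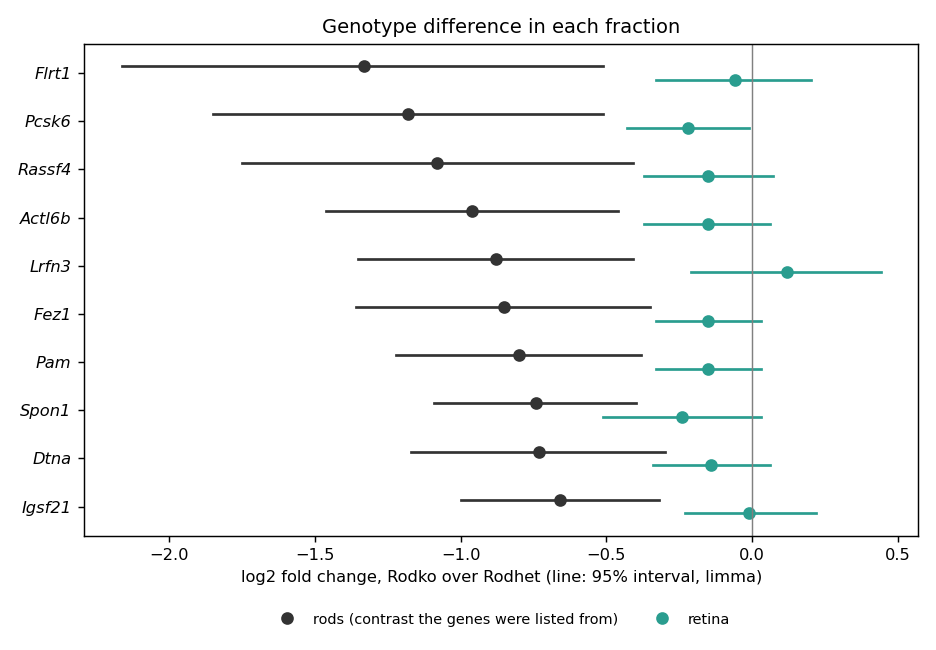
Log2 fold change of Rodko over control (horizontal axis) for each gene in rods (black) and in retina (green), with 95% intervals from limma. The rod points lie between -1.33 and -0.66, in the contrast the genes were listed from, so their intervals are no test. The retina points lie between -0.24 and 0.12, with 9 of 10 retina intervals crossing 0.

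The 10 genes were all lower in rods than in retina, measured as the mean of both genotypes. That mean includes the Rodko rod libraries, in which the genes were listed as low, so each genotype is also given alone. All 10 passed the threshold with adjusted p of at most 7.09e-07 over all 12 libraries and of at most 0.00727 in control libraries alone (limma in both). In controls alone the log2 difference ran from -3.27 (*Pam*) to -1.14 (*Igsf21*) and -0.71 (*Lrfn3*), the last more than 1.5 times smaller than its -1.19 over both genotypes. In Rodko libraries alone it ran from -4.16 (*Pcsk6*) to -1.72 (*Lrfn3*). *Flrt1* had -2.28 in controls and -3.57 in Rodko. Over both genotypes, for all 10 the 6 rod libraries were below the 6 retina libraries in CPM. Lower levels in rods were common, at 42.5% of the 25584 genes tested (10870 genes, with 6939 higher). Scaled by library totals alone, 14901 genes were lower and 2734 higher, and with the deposited values 15268 and 2522. Among genes with at least 10 reads in every library the balance turned, with 3912 lower and 6670 higher. The members' median log2 difference was -3.13, against -0.39 for all genes, and -3.70 against -0.74 with library totals. *Pcsk6* (-3.65, SE 0.126) and *Pam* (-3.57, SE 0.0901) were the lowest. *Rassf4* (-3.22), *Dtna* (-3.18), *Fez1* (-3.16), *Spon1* (-3.10) and *Flrt1* (-2.90) followed with overlapping intervals. *Actl6b* (-2.32, 95% interval -2.55 to -2.08), *Igsf21* (-1.45, -1.62 to -1.27) and *Lrfn3* (-1.19, -1.48 to -0.91) were less reduced. The interval of *Actl6b* met that of *Flrt1* (-3.31 to -2.49), and those of *Igsf21* and *Lrfn3* overlapped.

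As a share of the retina library with the same number, the CPM of *Lrfn3* in control rods was 62.2% ± 11.4, that of *Igsf21* 45.9% ± 4.12 and that of *Actl6b* 26.7% ± 5.86 (SD, n = 3). The other 7 genes had shares between 10.7% ± 2.94 (*Pam*) and 20.8% ± 4.76 (*Flrt1*). In Rodko rods the shares were 31.4% ± 7.47 for *Lrfn3*, 29.3% ± 3.06 for *Igsf21* and 15.0% ± 1.08 for *Actl6b*, and between 5.52% ± 1.11 (*Pcsk6*) and 9.77% ± 0.536 (*Spon1*) for the other 7. The summed CPM of the 10 genes in rods was 17.2% of that in retina in controls. In Rodko it was 10.9%, a fall within the contrast that chose the genes, so nothing is read from it. The same share was 14.3% and 11.1% for 13 amacrine markers, 14.6% and 12.6% for 11 Müller glia markers, 13.5% and 11.3% for 12 ganglion cell markers, 31.3% and 33.1% for 17 bipolar markers, and 62.0% and 62.8% for 10 cone markers. Single bipolar markers were lower in rods than the sum shows, with a median log2 difference of -3.16 and 16 of 17 past the threshold as lower, all but *Prkca* (-0.02), and the amacrine median was -3.15. The control shares of 7 of the 10 genes thus lay between 10.7% and 20.8%, near those of amacrine, ganglion cell and Müller glia markers, while *Lrfn3* was close to the share of the cone markers.

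Compared between genes per kilobase of exon, the order in control retina was *Igsf21* (13.1 CPM per kb), *Fez1* (11.3), *Spon1* (11.1), *Pam* (7.21), *Actl6b* (5.06), *Pcsk6* (4.58), *Lrfn3* (4.05), *Rassf4* (2.90), *Dtna* (2.74) and *Flrt1* (1.86). In control rods *Igsf21* again led (5.98 CPM per kb) and *Lrfn3* moved to the second place (2.45). *Fez1* (1.60), *Spon1* (1.53) and *Actl6b* (1.35) came next, and the other 5 genes were between 0.369 (*Dtna*) and 0.762 (*Pam*). For scale, *Pkm* had 746 CPM per kb in control rods. Exon lengths are from GENCODE vM21, and a gene of which only some exons are used has its level understated.

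Several of the 10 genes have a close relative that was higher in rods than in retina or lower by far less, by an amount that depends on the scaling. *Actl6a*, the ACTL6 form of dividing cells, was higher in rods than in retina (log2 difference 1.52, SE 0.0603, adjusted p = 3.63e-12) and had 22.9 CPM per kb in control rods, against 1.35 for *Actl6b*. *Lrfn2* differed by 0.09 (SE 0.0931, adjusted p = 0.383) and had 5.16 CPM per kb in control rods, against 2.45 for *Lrfn3*. *Dtnb*, or beta-dystrobrevin, differed by -0.15 (adjusted p = 0.0742) and had 2.89 CPM per kb in control rods, against 0.369 for *Dtna*. *Fez2* differed by -0.27 (SE 0.0695, adjusted p = 0.00289), and *Furin*, the ubiquitous convertase, by -0.14 (adjusted p = 0.114; limma in all). With RLE scaling *Dtnb* (-0.22, adjusted p = 0.0123) and *Furin* (-0.21, adjusted p = 0.0252) passed the threshold as lower too. With library totals as the scale, *Actl6a* stayed higher (0.95) but *Lrfn2* (-0.47), *Dtnb* (-0.71), *Furin* (-0.71) and *Fez2* (-0.83) all passed the threshold as lower, against a median of -0.74 over all genes, so they were near that median rather than reduced beyond it. The other 8 relatives were lower in rods, from -2.07 (*Spon2*) to -3.58 (*Rassf2*), with *Flrt2* at -3.47 and *Pcsk5* at -3.28.

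None of the 13 relatives passed the adjusted threshold between genotypes in either fraction (adjusted p from 0.932 in rods and from 0.947 in retina, limma). *Actl6a* had a rod log2 fold change of 0.09 (SE 0.0898), *Dtnb* 0.07 (SE 0.112), *Fez2* 0.11 (SE 0.117), *Furin* -0.11 (SE 0.107) and *Lrfn2* -0.06 (SE 0.146). *Flrt3* (-0.92, SE 0.388) and *Rassf2* (-1.76, SE 0.821, from a control mean of 13.3 ± 9.77, SD, n = 3) had the lowest estimates.

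**Figure D3:**
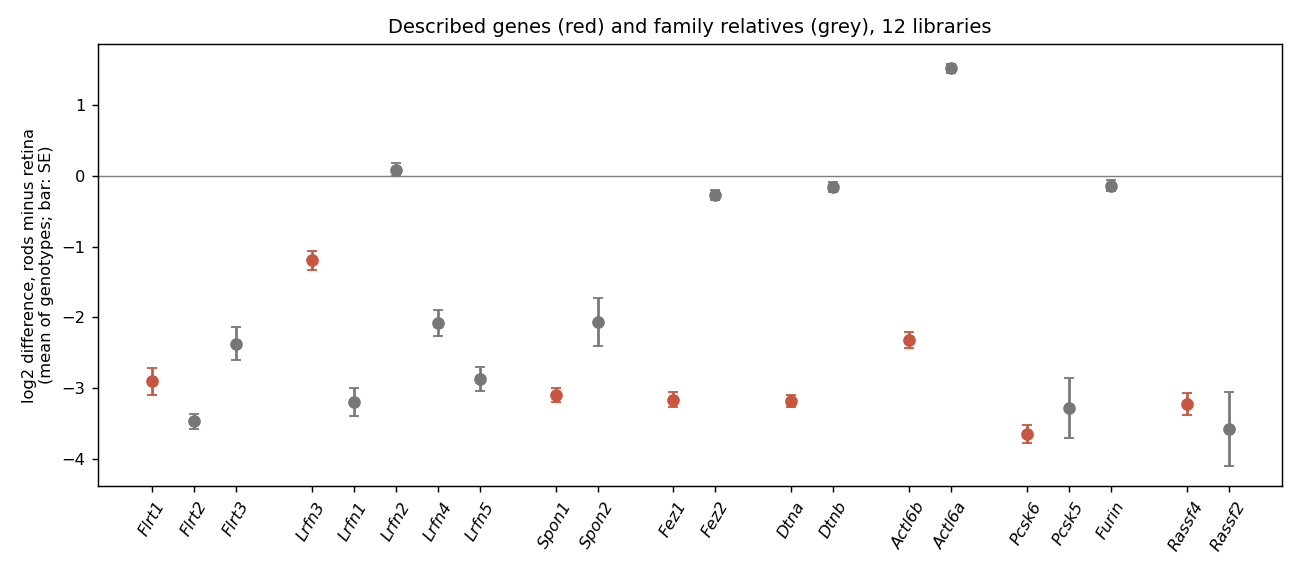
Log2 difference of rods minus retina (mean of genotypes, SE as bars, 12 libraries, TMM scaling) for 8 families with the described genes in red and their relatives in grey. *Actl6a* (1.52) is above 0 and *Lrfn2* (0.09), *Furin* (-0.14), *Dtnb* (-0.15) and *Fez2* (-0.27) are near it, while *Actl6b*, *Lrfn3*, *Pcsk6*, *Dtna* and *Fez1* are at -1.19 or lower.

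Wider lists of partners, chosen for what the proteins do, were read in the same fits. Of 26 synaptic adhesion genes (latrophilins, neurexins, neuroligins and other partners), 24 were lower in rods than in retina and 0 higher, with a median of -2.77. In the rod genotype contrast 24 of 26 had estimates below 0 with a median of -0.40, from -1.10 (*Nlgn3*, a neuroligin) to 0.16 (*Lrfn5*), and 0 passed the adjusted threshold, with 7 at an unadjusted p under 0.05. Over all 20658 genes tested in rods, 48.9% had estimates below 0 and 986 had an unadjusted p under 0.05. Genes lower in rods than in retina leaned below 0 more often. Of genes with rods minus retina differences between -3 and -2, 88.4% were below 0 (median -0.31). Between -4 and -3 the share was 93.7% (median -0.41). Those genes had mean rod values like the genes followed here, and were not matched to this list. Whether the adhesion genes lean beyond genes of like difference was not tested. In retina 13 of the 26 adhesion genes were below 0 with a median of -0.01. Among 22 peptide processing genes, 12 were lower and 6 higher in rods than in retina, and 17 had rod genotype estimates below 0 (median -0.19).

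The remaining lists showed no such lean in rods, and they were also less reduced in rods against retina. Their median rods minus retina differences were 0.27 (BAF complex), -0.29 (dystrophin complex), -0.22 (kinesin transport) and 0.06 (Rassf and Hippo). Those of the synaptic adhesion and peptide processing genes were -2.77 and -1.73. Whether the lean of a list goes beyond its level in rods relative to retina was not tested. For 23 BAF complex genes, 8 were lower and 12 higher in rods than in retina, and the rod genotype median was 0.05 with 6 below 0. For the dystrophin complex (15 of 18 tested in rods) that median was -0.01 with 8 below 0. For 11 genes of kinesin transport it was -0.04 with 7 below 0, and for 18 Rassf and Hippo genes 0.06 with 8 below 0. No gene of the 6 lists passed the adjusted threshold between genotypes in rods or in retina.

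Genes that resemble the 10 in being lower in rods than in retina also leaned below 0 in the rod genotype contrast. Of 1477 other genes whose rods minus retina difference and mean rod value lay within the range of the 10, 86.5% had a rod genotype estimate below 0, with a median of -0.31 and a lower quartile of -0.50. All 3 Rodko libraries were below all 3 controls for 17.5% of them, against 5.4% of all genes tested. The rod estimate was at or below -0.66, the highest of the 10, for 150 of them (10.2%). The median estimate in steps of rods minus retina went from -0.41 (636 genes between -4 and -3) and -0.31 (553 genes between -3 and -2) to -0.11 (454 genes between -2 and -1), 0.00 (987 genes between -1 and 0) and 0.04 (1421 genes between 0 and 1). In retina the median over the 1477 genes was -0.055. The 10 genes were all below the lower quartile of their step, in the contrast that chose them, so nothing is read from that place.

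Summed marker levels of some other cell types were also lower in Rodko rods. Sums of the 10 genes, chosen by the rod genotype contrast, were 66.0 to 76.2 CPM in control rods and 37.9 to 42.2 CPM in Rodko rods. Amacrine markers (13 of 13 detected) summed to between 148 and 222 CPM in control and 124 and 139 CPM in Rodko rods, with 12 of 13 estimates below 0 and a median of -0.64. Müller glia markers summed to between 636 and 806 CPM and between 523 and 619 CPM, with 11 of 11 below 0 and a median of -0.37. Endothelial markers also did not overlap (23.8 to 33.3 against 16.6 to 23.1 CPM), by a narrow margin. Their estimates were mixed, with 5 of 7 below 0 and a median of -0.25, from -0.83 (*Flt1*) to 0.82 (*Cdh5*).

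Ganglion cell markers (97.8 to 122 against 69.0 to 107 CPM, 11 of 12 below 0, median -0.35) and bipolar markers (344 to 421 against 319 to 409 CPM, 16 of 17 below 0, median -0.30) overlapped between genotypes. Cone markers (median -0.10), horizontal cell markers (-0.11), microglia (-0.09) and pigment epithelium (-0.05) had medians nearer 0, and rod markers had 0.04. The bipolar, amacrine, ganglion cell, horizontal and endothelial sums were highest in control rod library 2, as was the sum of the 10 genes. Those of Müller glia, cone, pigment epithelium and microglia markers were highest in control rod library 3, and that of rod markers in library 1. Without control rod library 2 the medians were -0.42 for amacrine, -0.26 for Müller glia, -0.30 for bipolar and -0.26 for ganglion cell markers. The median of the 10 genes was then -0.78, in the contrast that chose them, so nothing is read from its larger size. No marker gene of these lists passed the adjusted threshold between genotypes. The part of these other cell types in the rod values of the 10 genes was not tested.

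**Figure D4:**
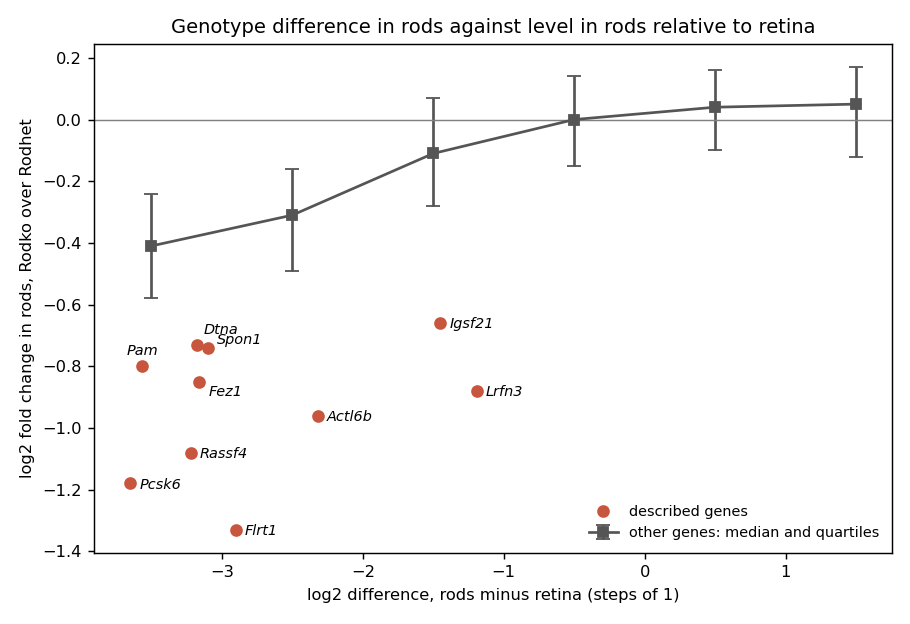
Log2 fold change in rods of Rodko over control (vertical axis) against the log2 difference of rods minus retina (horizontal axis). Grey squares are medians with quartiles of other genes of like mean rod value in steps of 1, falling from 0.04 between 0 and 1 to -0.41 between -4 and -3, and red points are the 10 genes, which lie below the lower quartile at every step.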

How the data were processed

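The authors deposited 1 table with a signal value per gene and library. Each value is a read number over the library's size factor (median of ratios, computed apart for rods and retina), rounded to 1 decimal. All positive values (100%) gave whole reads within 0.1 read beyond the rounding. The labels name CASAVA 1.8.2, HISAT2, DESeq2, edgeR and the build GRCm39 without their roles; the counter, annotation and strand setting are not given in the sources used here. Groups came from the sample labels. The genes and lists were chosen with earlier results of these data known.

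The genotype contrast was fitted separately for rods and retina in limma 3.58.1 (R 4.3.3, variance trend) on log2(value + 1), over genes with a mean of at least 1 in 1 genotype. On this scale fold changes of low genes come out too small. Rods were compared with retina on recovered reads scaled by TMM (edgeR 4.0.16) over 12 libraries, as the mean of the genotypes. Benjamini-Hochberg adjusted p-values were called at 0.05, and 95% intervals came from the same fits. The fits were tested on simulated data. Alternatives were edgeR and DESeq2 1.42.0 on recovered reads, other scalings and filters (none, or 10 reads in every library), 1 fit of all libraries, a replicate block, a pseudocount of 0.1 and leaving out each library. The genes named were the 10, those overlapping them, *Pkm*, 13 relatives, and the ends of a list. Positions, overlaps and exon lengths are from GENCODE vM21 (GRCm38) by identifier, and start windows are from RefSeq. Python 3.11.15 (numpy 2.4.6, pandas 2.3.3) and matplotlib 3.10.9 were also used. With 3 libraries per group the precision is limited by that number.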

Additional observations from a re-analysis of the deposited data

How the results depend on the processing

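All 10 genes stayed lower in rods than in retina, past the adjusted threshold, in each of 21 alternatives (210 of 210 values). None of the 10 passed in retina in any of 14 alternatives, and 137 of 140 retina estimates kept their sign. *Lrfn3* turned to -0.0028 without control retina library 2 (leave-one-out range -0.0028 to 0.30). *Igsf21* turned to 0.082 without control retina library 3 and 0.047 without Rodko retina library 1 (range -0.074 to 0.082). The cause was not tested.

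Numbers of genes called moved more. In rods 4 genes passed, and 2 to 6 with 1 library left out. In 1 fit of all 12 libraries 18 passed, with 4 of the 10 genes among them, and nothing is read from that. That fit adds residual degrees of freedom and also pools the spread of rod and retina libraries. Under it the unadjusted p of *Pcsk6* in retina rose from 0.0445 to 0.228 (limma). In retina 1 gene passed, 0 with at least 10 reads in every library, and 0 to 4 with 1 library left out. The 10870 genes lower in rods than in retina became 3912 with at least 10 reads in every library, a filter that removes genes low in rods, and 10350 to 10820 with 1 library left out.

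The genotypes share replicate numbers, but same-numbered libraries of the 2 genotypes did not deviate together (correlations from -0.255 to 0.128 in rods and from -0.318 to 0.0181 in retina), so the numbers do not pair them. With the replicate block, 8 genes passed in rods and 0 in retina. With rod and retina libraries of the same genotype and number as a block, all 10 genes stayed lower in rods.

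Read numbers limit *Flrt1* and *Pcsk6* most, at 10 to 22 reads per Rodko rod library.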
